A study of Mus musculus with 10 samples.

Results

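Chromatin accessibility after 6 h of GATA1 activation was compared with that of untreated cells (0 h) in G1E-ER4 cells, using the ATAC-seq peak lists of 2 libraries at each time. Each list was reduced to its 11697 highest-scoring peaks, the size of the smallest of the 4, and summits extended by 250 bp on each side were merged into 17319 regions. A region was gained when it was in both 6 h lists and in neither 0 h list, and lost in the reverse case. This gave 487 gained and 496 lost regions, 983 in all, against 6930 regions shared by the 4 lists. The lists of all 10 libraries of the series, cut to the same size except that of 24 h replicate 2, which held only 10697 peaks, merged into 21963 regions.

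G1E-ER4 is a subclone of G1E, a mouse erythroid progenitor line without functional Gata1, and it carries GATA1 fused to the ligand-binding domain of the estrogen receptor (GATA1-ER) at all times. The 0 h cells therefore hold the fusion protein without its ligand, and the 6 h cells received β-estradiol at 1e-07 M. Cells of every group grew with stem cell factor and erythropoietin, and about 50000 cells were taken for each library. The other 6 libraries were made after 2, 12 and 24 h of β-estradiol, 2 at each time. As a model, the comparison is limited to a single cultured line. The paper describes its ATAC-seq experiments in these cells as independent. Neither it nor the labels say whether the replicates were separate cultures, so how much of the spread between them is technical is unknown.

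ATAC-seq marks open DNA by the insertion of sequencing adaptors with the Tn5 transposase, and open regions are mostly promoters and enhancers. GATA1 binds GATA motifs at enhancers and promoters, often beside TAL1 and LDB1, and drives red cell genes such as those for globin, heme synthesis and the membrane skeleton. GATA2 holds many of the same sites in progenitors and is replaced by GATA1 as cells mature, a change known as the GATA switch, during which progenitor and mast cell genes are silenced.

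The sequences at 7 regions show GATA motifs, which were not used to call regions gained or lost. These regions were chosen after their values were seen. Each sequence is the central 200 bp of a region on the plus strand of GRCm38 (mm10). Capitals mark GATA matches (AGATAA or TGATAA on either strand, so that TTATCT and TTATCA are matches on the minus strand) and the CTG (CAG on the minus strand) that stands 7 or 8 bases from such a match in the TAL1-GATA composite. The first 4 regions were lost and the last 3 gained.
Gata2, intergenic, chr6:88190609-88190808: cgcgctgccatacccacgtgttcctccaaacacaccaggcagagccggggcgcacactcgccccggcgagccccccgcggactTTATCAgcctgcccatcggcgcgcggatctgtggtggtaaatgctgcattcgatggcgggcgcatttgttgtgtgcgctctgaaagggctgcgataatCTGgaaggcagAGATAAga
Cbfa2t3, promoter, chr8:122699096-122699295: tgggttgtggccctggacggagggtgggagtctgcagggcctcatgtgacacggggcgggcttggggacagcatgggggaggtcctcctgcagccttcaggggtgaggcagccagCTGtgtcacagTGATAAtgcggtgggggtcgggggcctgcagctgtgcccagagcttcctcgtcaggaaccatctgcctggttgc
Erg, intron, chr16:95487995-95488194: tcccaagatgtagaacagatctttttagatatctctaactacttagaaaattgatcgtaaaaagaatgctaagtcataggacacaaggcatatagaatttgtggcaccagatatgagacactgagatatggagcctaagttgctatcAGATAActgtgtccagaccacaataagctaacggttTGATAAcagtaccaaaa
Prss34, intergenic, chr17:25293539-25293738: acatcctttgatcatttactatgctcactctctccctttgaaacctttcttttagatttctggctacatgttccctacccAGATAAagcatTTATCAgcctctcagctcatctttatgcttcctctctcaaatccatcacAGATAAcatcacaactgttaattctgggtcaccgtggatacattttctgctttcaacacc
Spns2, intron, chr11:72466976-72467175: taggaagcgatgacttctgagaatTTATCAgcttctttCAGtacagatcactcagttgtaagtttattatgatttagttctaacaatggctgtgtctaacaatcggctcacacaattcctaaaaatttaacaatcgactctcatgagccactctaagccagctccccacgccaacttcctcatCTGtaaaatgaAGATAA
Bcl2l1, intron, chr2:152817652-152817851: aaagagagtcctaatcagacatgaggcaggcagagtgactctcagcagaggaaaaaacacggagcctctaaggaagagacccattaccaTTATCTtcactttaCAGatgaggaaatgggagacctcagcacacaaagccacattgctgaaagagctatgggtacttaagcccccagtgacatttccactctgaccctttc
Jak2, intergenic, chr19:29203436-29203635: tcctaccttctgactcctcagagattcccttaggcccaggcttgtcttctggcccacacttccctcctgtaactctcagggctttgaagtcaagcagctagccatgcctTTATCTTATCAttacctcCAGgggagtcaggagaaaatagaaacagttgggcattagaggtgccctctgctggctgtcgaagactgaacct
Among these lost regions, the Gata2 and Cbfa2t3 sequences each hold 1 composite, and the Erg and Prss34 sequences hold 2 and 3 GATA matches without a composite. Of the gained sequences, that of Spns2 holds 2 composites and those of Bcl2l1 and Jak2 hold 1 each. At Jak2 the 2 GATA matches overlap. These 7 regions do not stand for their sets, in which a composite was present in 4.52% of gained and 14.7% of lost regions.

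The 4 lists differed in size and score, and both of these touch the calls. Whole lists held 15256 and 11697 peaks before treatment and 14210 and 19855 after 6 h (replicates 1 and 2), on chromosomes 1 to 19 and X. The peak score (−log10 of the MACS q-value within a library) had a median of 6.48 and 6.73 in the 0 h lists and of 5.77 and 7.68 in the 6 h lists. Read totals were not given with the lists, so sequencing depth is unknown, and where a peak is missing it was only not called. Within 1 kb of a transcript start lay 58.7% and 60.0% of the kept 0 h peaks and 59.3% and 62.7% of the kept 6 h peaks, highest in 6 h replicate 2. Of the promoters of 8 erythroid marker genes, 5 and 4 were in the whole 0 h lists and 5 and 7 in the 6 h lists, and Kit, Lyl1 and Myb, 3 of 4 progenitor markers, had a promoter peak in all 4 lists. Of 20 lymphoid and 20 myeloid marker promoters, 6 h replicate 2 listed 1 each (Lck and Fcgr1) and the other lists none, and Col1a1 was the only 1 of 20 non-haematopoietic marker promoters listed.

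Gained regions made up 2.81% and lost regions 2.86% of the 17319 regions. Regions present in exactly 2 of the 4 lists fell into 6 patterns, and the pair of lists that held a region was the 6 h pair for 487, the 0 h pair for 496 and a pair with the same replicate number for 1066. The remaining patterns, 0 h replicate 1 with 6 h replicate 2 and 0 h replicate 2 with 6 h replicate 1, held 378 and 307 regions. A further 5073 regions were in a single list. The gained and lost regions were thus about as numerous as the regions that separated the replicate numbers.

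Most gained and lost regions had low scores and lay close to the limit of the lists. Gained regions had a median score of 5.23 in 6 h replicate 1 (range 3.61 to 15.8) and 8.15 in 6 h replicate 2 (range 6.34 to 21.3), against 8.20 and 17.4 for shared regions. Lost regions had a median of 5.91 in 0 h replicate 1 (range 4.31 to 17.0) and 4.61 in 0 h replicate 2 (range 1.41 to 14.6), against 9.95 and 9.25. The poorer of a region's ranks was beyond 8772, in the lowest part of the list, for 73.3% of gained, 70.2% of lost and 28.3% of shared regions. The 0 h lists ended at scores of 4.3 and 1.3 and the 6 h lists at 3.61 and 6.33. Below these limits, 174 gained regions had a peak in the whole 0 h replicate 1 list (scores 1.58 to 4.29), and none could have had one in 0 h replicate 2, which was not shortened. Of the lost regions, 98 had such a peak in 6 h replicate 1 (scores 1.96 to 3.6) and 338 in 6 h replicate 2 (scores 1.35 to 6.33). Absence from both whole lists of the other time was met by 313 gained regions (64.3%) and 139 lost regions (28.0%).

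The genomic class of the regions was determined next, with a promoter defined as a region reaching within 1 kb of a transcript start and all other regions counted as distal. Promoters were 183 of the 487 gained regions (37.6%) and 92 of the 496 lost regions (18.5%), against 75.5% of shared regions and 49.7% of all regions. Introns held 31.2% of gained and 37.3% of lost regions, and 28.1% and 41.1% were intergenic. Exons away from promoters held 15 regions of each set, 5 in coding and 10 in untranslated parts. The order of the promoter shares rested on a single library. Without 6 h replicate 2 it was turned, with 25.2% of gained and 41.1% of lost regions at promoters, and without 6 h replicate 1 it narrowed to 32.7% and 25.3%. Of the 4 lists, that of 6 h replicate 2 also had the largest share of kept peaks near starts, and the part of this in the class shares was not tested.

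**Figure D1:**
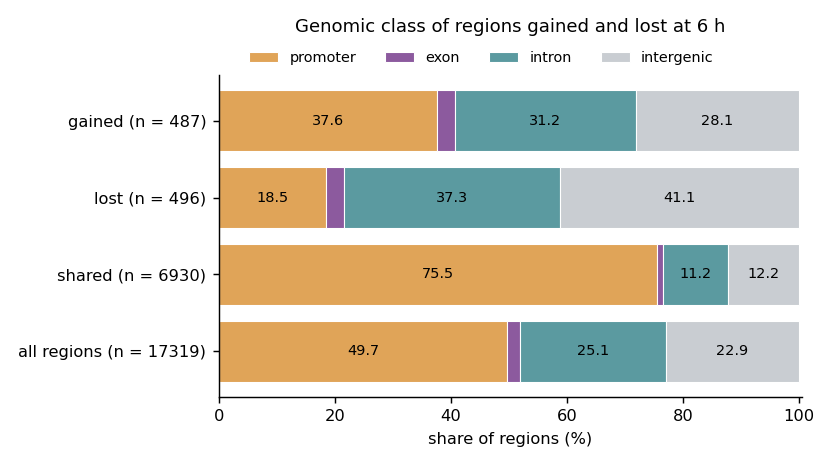
Share of regions in each genomic class (percent, horizontal axis) for regions gained at 6 h, lost at 6 h, shared by the 4 lists, and for all regions, with the number of regions beside each bar. Promoters make up 37.6% of gained and 18.5% of lost regions, and intergenic sequence 28.1% and 41.1%, while exons take the narrow unlabelled band.

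Lost distal regions lay farther from genes and in sequence of lower GC content. Their median distance to the nearest start was 25.2 kb, against 14.8 kb for gained and 19.1 kb for all distal regions. Beyond 100 kb lay 73 lost regions (14.7%) and 17 gained regions (3.49%), compared with 4.84% of all regions. The mean GC content of distal regions was 46.5% for lost, 51.1% for gained and 50.0% for all regions. Repeats covered more than 50% of 3.29% of the gained and 3.02% of the lost regions. By chromosome, gained regions ranged from 0.873% of all regions on chromosome 16, where 5 of 573 were gained and 24 lost, to 4.46% on chromosome 13, and lost regions ranged from 1.70% on chromosome 7 to 4.19% on chromosome 16.

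Lost regions held more GATA motifs than gained regions. A GATA match in the central 200 bp was present in 268 lost regions (54.0%) and 135 gained regions (27.7%), against 25.7% of all 17319 regions. Among distal regions the shares were 62.9% of 404 lost, 39.5% of 304 gained, 51.2% of 1696 shared and 45.4% of 8703 regions in all. Lost distal regions were thus above, and gained distal regions below, the share of all distal regions. At least 2 GATA matches were found in 130 of the lost distal regions (32.2%) and in 26 of the gained (8.55%). The TAL1-GATA composite was present in 16.1% of lost, 6.58% of gained and 10.9% of all distal regions, and in 5.97% of all regions. At promoters a GATA match was found in 15.2% of lost, 8.20% of gained and 5.90% of all regions.

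The spread between libraries was taken from the 4 comparisons of a single 6 h list with a single 0 h list, which share libraries and are not independent. In these the GATA share was 39.1% ± 1.91 (SD, n = 4, 37.1% to 41.1%) for regions in the 0 h list alone and 27.3% ± 1.02 (SD, n = 4, 26.3% to 28.7%) for regions in the 6 h list alone. The ranges did not overlap. For distal regions the shares were 50.7% ± 2.23 and 38.7% ± 4.76 (SD, n = 4 each), and for the composite over all regions 9.73% ± 0.507 and 4.97% ± 0.705. The GATA share of lost regions also exceeded that of gained regions under all 12 alternative settings in which it was computed, by 12.2 to 36.0 percentage points. Low GC content moved with this result. In distal regions under 45% GC, a GATA match was found in 78.4% of 167 lost, 51.1% of 45 gained and 64.5% of all regions, and between 45% and 50% GC in 70.5%, 41.6% and 53.3%. Between 50% and 55% GC the shares of 42.3%, 42.9% and 41.1% lay together, and above 55% they were 29.6%, 25% and 20.7%.

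**Figure D2:**
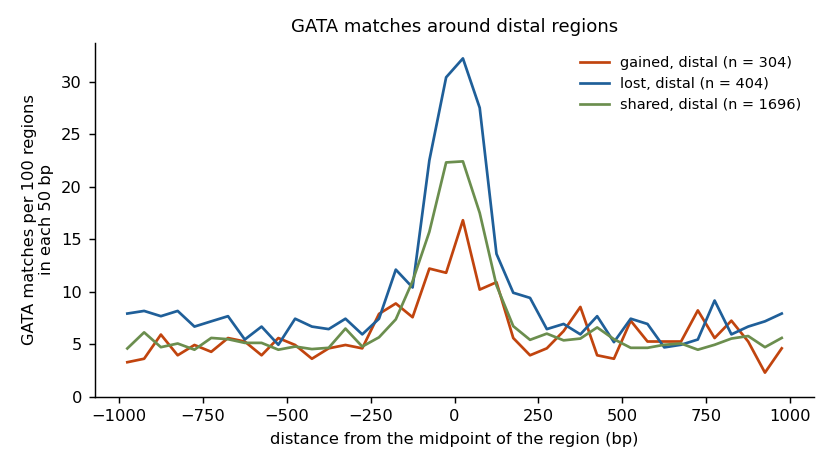
GATA matches per 100 distal regions in each 50 bp (vertical axis) against the distance in bp from the midpoint of the region (horizontal axis) for gained (n = 304), lost (n = 404) and shared (n = 1696) regions. Matches gather at the midpoint in all 3 sets, reaching 32.2 per 100 lost, 22.4 per 100 shared and 16.8 per 100 gained regions just to its right.

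Other motifs differed by fewer percentage points. In distal regions the E-box (CANNTG), bound by TAL1 and other basic helix-loop-helix factors, was present in 72.8% of lost, 69.4% of gained and 69.7% of all regions. The RUNX motif (TGTGGT) was present in 22.3%, 18.4% and 21.1%, and the AP-1 motif (TGANTCA) in 12.6%, 7.24% and 8.63%. The ETS motif (A or C, A or C, then GGAAG) was found in 17.3% of lost, 23.0% of gained and 21.1% of all distal regions, and the KLF motif (CCNCACCC) in 7.67%, 11.5% and 10.5%. The CTCF core motif was present in 8.91% of lost, 14.5% of gained and 13.1% of all distal regions. Over all 17319 regions these motifs were found in 57.5% (E-box), 14.3% (RUNX), 5.51% (AP-1), 25% (ETS), 11.9% (KLF) and 8.12% (CTCF). A composite match also contains a GATA match, and an E-box can overlap the CTG of a composite. A match is a description of the sequence, not evidence of binding.

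**Figure D3:**
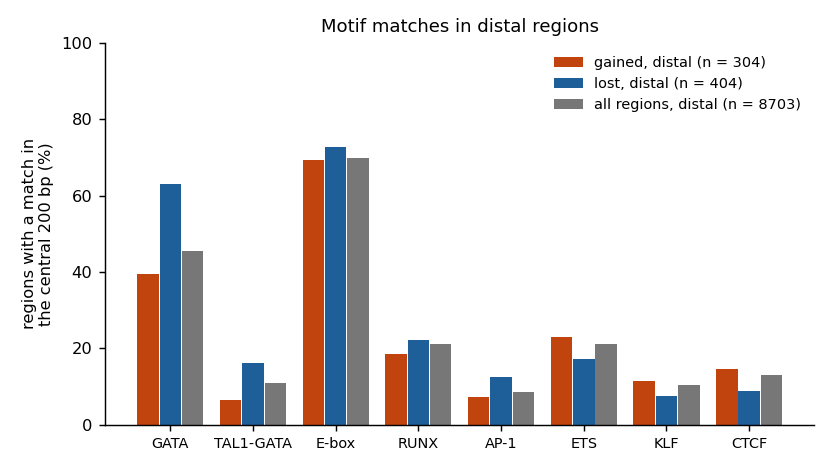
Share of distal regions with a match to each of 8 motifs in the central 200 bp (percent, vertical axis), for gained, lost and all distal regions. The GATA bars show the widest gap, 39.5% of gained against 62.9% of lost regions, followed by the gap of the TAL1-GATA bars, 6.58% against 16.1%.

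Whether the regions kept their state was examined in the 6 libraries that took no part in choosing them. Of the lost regions, 38.3% and 41.3% had a peak in the 2 h lists, 30.2% and 28.2% in the 12 h lists, and 29.4% and 20.8% in the 24 h lists (replicates 1 and 2, lists of up to 11697 peaks). The 2 h libraries lay above all later ones. The 2 h mean was 39.8% ± 2.12 (SD, n = 2) and the mean of the later libraries 27.1% ± 4.31 (SD, n = 4), a difference of 12.6 percentage points (exact permutation test, two-sided p = 0.133, the smallest that 15 assignments allow). Over all regions the shares also declined, from 59.8% and 61.3% at 2 h to 57.6% and 55.5% at 24 h. The decline of the lost regions lay in their distal members, with 36.4% and 43.1% after 2 h, 29.0% and 25% after 12 h, and 25.7% and 16.3% after 24 h, against 44.1% and 44.0%, 43.0% and 40.4%, and 40.1% and 32.0% of all distal regions. Lost promoter regions ranged from 33.7% to 46.7% with no such order. Of the 496 lost regions, 215 (43.3%) were in no list at 12 or 24 h. In this group 74.4% held a GATA match and 9.30% were promoters.

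Of the gained regions, 49.9% and 43.3% had a peak in the 2 h lists, 52.0% and 52.0% in the 12 h lists, and 52.6% and 45.4% in the 24 h lists. The 2 h mean of 46.6% ± 4.67 (SD, n = 2) and the later mean of 50.5% ± 3.41 (SD, n = 4) overlapped in their libraries (exact permutation test, two-sided p = 0.267, smallest possible 0.133). All 6 other libraries held 37 gained regions (7.60%), and none of them held 40 (8.21%). For lost regions these numbers were 9 (1.81%) and 117 (23.6%). A total of 72 gained regions (14.8%) were in all 4 lists of 12 and 24 h, and 11 of them were in neither 2 h list. At each of the 3 times gained regions were listed more often than lost regions, but this order was turned when either 6 h library was left out. Without 6 h replicate 2, 28.4% of gained and 45.9% of lost regions were listed at 24 h, and without 6 h replicate 1 the shares were 32.5% and 36.3%. The fall in the mean share of lost regions from 2 h to 12 h and on to 24 h was present in all 11 alternatives that give it. In replicate 1 the share hardly moved from 12 h to 24 h (30.2% and 29.4%), and the later step was carried by 24 h replicate 2 (28.2% and 20.8%), whose list is the shorter, with 10697 peaks.

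**Figure D4:**
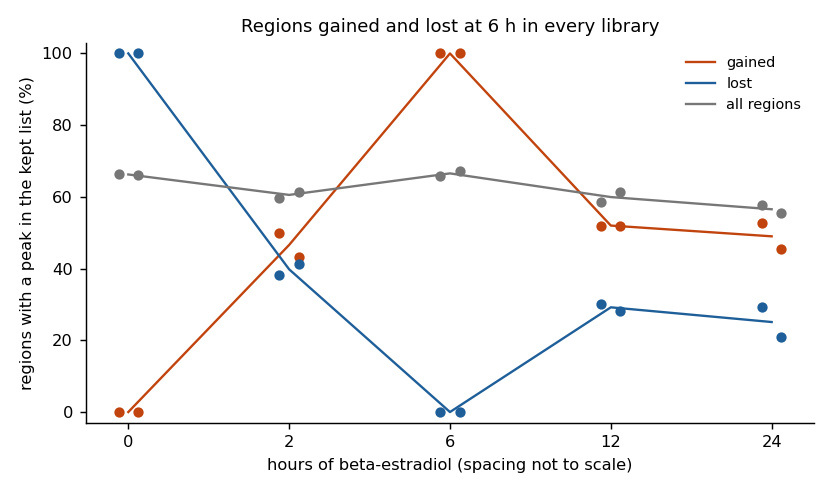
Share of regions with a peak in the kept list of each library (percent, vertical axis) against hours of β-estradiol (horizontal axis, not to scale), for gained, lost and all regions, with a point for each library and lines through the means. The values at 0 and 6 h of gained and lost regions are fixed by the rule, and at 2, 12 and 24 h the lost regions pass from 39.8% on average to 29.2% and 25.1%.

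The best-ranked regions absent from the whole lists of the other time were examined individually. Among gained distal regions, the best-ranked lay in an intron of Noct, the gene of the circadian enzyme nocturnin, at +5.88 kb (chr3:51230085-51230615), with 2 GATA matches. It scored 7.35 and 6.99 after 2 h, 6.75 and 16.3 after 6 h, 8.26 and 14.4 after 12 h, and 8.30 and 11.8 after 24 h, and was in neither whole 0 h list. It was therefore listed in every treated library. The same held for an intronic region of Rrp12, a ribosomal RNA processing factor, at +7.74 kb (chr19:41888174-41888690), which scored 6.68 and 21.3 at 6 h, and for a region in an Eaf1 intron nearest to Mettl6 (chr14:31496096-31496656), which scored 6.31 and 18.4. An intronic region of Arid1a, a subunit of the BAF chromatin remodelling complex, scored 8.66 and 12.4 at 6 h and between 3.94 and 16.1 in the 6 other libraries. The other 4 were nearest to Cetn4, Gm17660, Tyw3 and Dad1. Of the gained promoters, that of Tubgcp5, a part of the γ-tubulin complex, ranked best (chr7:55793938-55794453), with scores of 9.79 and 18.2 at 6 h and 6.91 to 14.3 in all 6 other libraries. Those of Pex11a, Tnks2 and Bcar1 followed, with 7.69 and 13.9, 8.65 and 13.5, and 6.50 and 13.6 at 6 h.

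Lost distal regions of the best rank mostly stayed unlisted. A region 389 kb from Galntl6 (8.23 and 7.43 at 0 h) was in no list of any treated library. The intronic region of Nxpe4 (8.89 and 7.05 at 0 h) was still listed at 2 h (5.27 and 5.91) and in none of the 6 later lists. Regions nearest to Nat1, Arl6, Rgs13, Nova1 and Ackr1 also stood among the 8 of best rank, and of these 5 all but the Rgs13 region held a GATA match. Lost promoters behaved differently. That of Crlf2, a receptor for thymic stromal lymphopoietin, had scores of 11.6 and 12.1 at 0 h and 9.12 and 10.0 at 2 h, was absent at 6 and 12 h, and had scores of 12.6 and 8.98 at 24 h. The promoter of Map2k2 was likewise absent only at 6 h and in 24 h replicate 1, with 7.76 and 5.17 at 0 h. The promoters of Ifrd1 and Hlcs, with 5.45 and 3.97 and with 6.76 and 3.96 at 0 h, were also listed again at 24 h, each in 1 library.

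Genes of 14 lists were then examined for a gained or lost region within 50 kb of a transcript start. Of all 21644 protein-coding genes, 5.33% had a gained and 4.04% a lost region there. At least 1 region of any kind lay in this window at 65.0% of all genes. The share was 75% for stem and progenitor genes, 80.0% for mast cell genes and 100% for erythroid transcription factor genes. It was 93.8% for cytokine receptor genes and 91.7% for iron handling genes. These 2 lists had a median of 4.5 regions a gene, against 1 over all genes. For megakaryocyte and lymphoid genes the share was 65.0%, and for myeloid genes 50.0%. The shares below were not adjusted for this.

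Lost regions were found at 5 of 20 stem and progenitor genes and gained regions at 1 of 20. The lost regions lay at Gata2, Erg, Hhex, Runx1 and Spi1, all of them transcription factors of early blood cells. The region 3.18 kb upstream of Gata2 (chr6:88190434-88190982), whose sequence is given above, had scores of 6.33 and 3.0 at 0 h, was absent from 6 h replicate 1 and had a score of 3.28, below the limit, in 6 h replicate 2. It was in neither 2 h list and, among the later lists, had a single low score of 3.61 at 12 h. The intronic Erg region at −28.7 kb (chr16:95487819-95488370) had scores of 8.55 and 12.5 at 0 h, 6.48 and 4.89 at 2 h, 3.65 in 6 h replicate 2 and none in the other 5 lists. Its scores thus went down over time before it left the lists. At Hhex the lost region had 6.81 and 7.04 at 0 h but also 6.28 in 6 h replicate 2 and 7.62 and 5.39 at 12 and 24 h. The Runx1 promoter region had 4.73 and 4.18 at 0 h and 5.08 in 6 h replicate 2, a higher score below a higher limit, and was in all 4 later lists, so its call rests on the list limit. The Spi1 region, nearest to Mybpc3, had 6.15 and 4.57 at 0 h and 3.24 and 5.05 at 6 h, both below the limits. It was kept in both 12 h lists (5.41 and 4.41) and was in neither 24 h list, so its call also rests on the list limits. The gained region lay at the promoter of Lmo4. Outside the 50 kb window, gained regions were nearest to Kit, the stem cell factor receptor (+187 kb, 6.37 and 9.30 at 6 h), and to Cd34 (−59.1 kb, 5.58 and 7.27).

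Of 20 mast cell and basophil genes, 6 had a lost and 2 a gained region. The lost regions lay at Fcer1a and Ms4a2, which encode the α and β chains of the high-affinity IgE receptor, at the proteases Cma1 and Prss34, and at Rgs1 and Rgs13, regulators of G protein signalling. The region 4.76 kb upstream of Prss34 (chr17:25293316-25293960) had scores of 12.8 and 3.78 at 0 h, 3.94 in 2 h replicate 2, 3.47 in 6 h replicate 2 and no peak in the 4 later lists. A promoter region of Olfr1404, 10.5 kb from the start of Fcer1a (chr1:173216363-173217011), held 3 GATA matches and 2 composites and had 9.09 and 4.29 at 0 h, 3.22 in 2 h replicate 1, 2.24 in 6 h replicate 1 and nothing later. At Rgs13 the region at −23.4 kb had 8.76 and 6.39 at 0 h and that at −7.74 kb had 7.93 and 6.98, and neither was in a list at 24 h. None of the 8 lost regions at these genes was in a whole 24 h list, and several of them share a locus, at Ms4a2 and at Rgs1 and Rgs13. Of all lost regions, 37.9% and 20.8% were in the whole 24 h lists (replicates 1 and 2). Cma1 had the highest score that remained at 6 h, with 8.83 and 9.01 at 0 h and 6.20, just under the limit, in 6 h replicate 2. At Ms4a2 a lost region (chr19:11612066-11612696, 6.28 and 4.60 at 0 h) and a gained region (chr19:11611494-11612021, 5.06 and 6.84 at 6 h) lay side by side. The other gained region lay 49.2 kb from Il1rl1, the receptor of interleukin 33, with 6.99 and 9.66 at 6 h and 7.72 and 6.94 at 2 h.

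**Figure D5:**
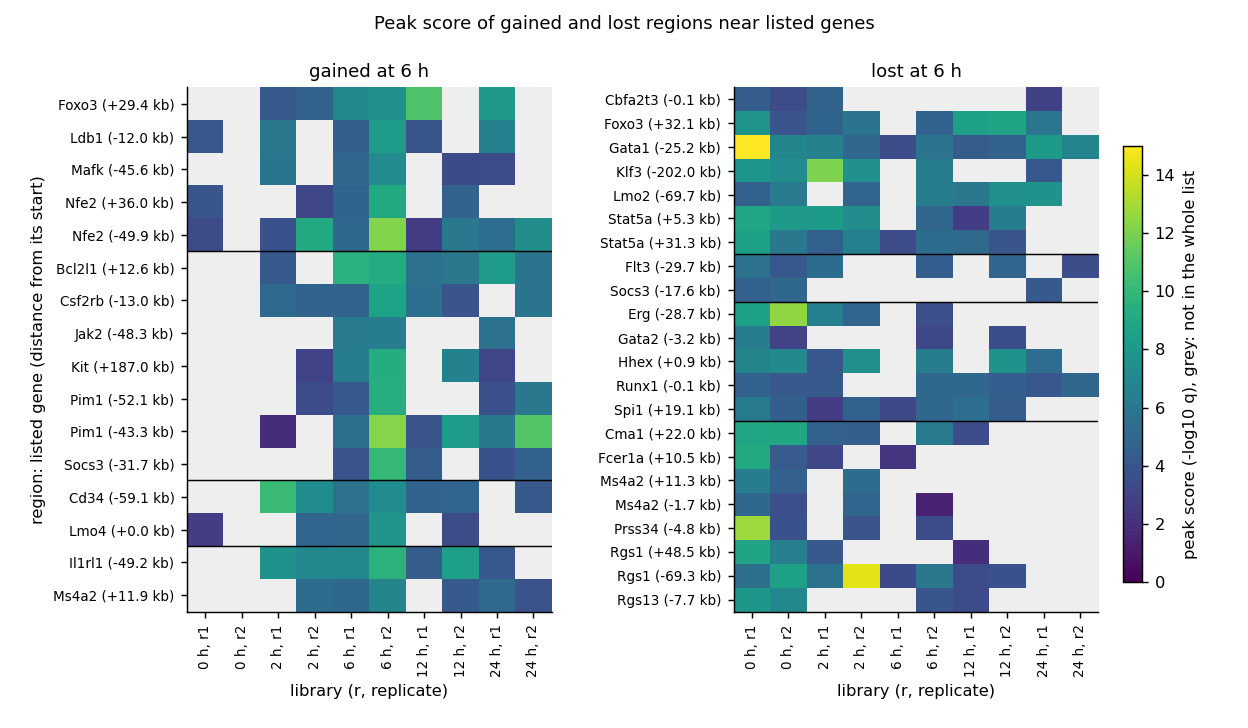
Peak score (−log10 q, colour) of gained (left) and lost (right) regions near erythroid transcription factor, cytokine signalling, stem and progenitor, and mast cell genes, from top to bottom between the black lines, in each of the 10 libraries (columns), with grey where the whole list held no peak (1 lost region is not shown). The lost mast cell regions have no peak in either 24 h library, and neither do the lost regions at Gata2, Erg, Spi1 and Stat5a. The Gata1 region keeps a score in all 10.

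Erythroid transcription factor genes had both kinds, gained regions at 4 and lost regions at 6 of 20. The promoter region of Cbfa2t3 (chr8:122698943-122699447), the gene of the corepressor ETO2, had 4.44 and 3.46 at 0 h, 4.76 in 2 h replicate 1 and 2.96 in 24 h replicate 1. Lost regions at Stat5a, a transcription factor downstream of the erythropoietin receptor, lay at +5.30 kb (8.90 and 8.10 at 0 h, 4.93 in 6 h replicate 2) and +31.3 kb (8.52 and 5.99 at 0 h, 3.44 and 5.33 at 6 h), and both are also within 50 kb of Stat5b. Neither was listed at 24 h. The region 25.2 kb upstream of Gata1 (chrX:7992751-7993512) had 15.0 and 6.87 at 0 h, 3.52 and 5.71 at 6 h, just under the limits, and between 4.40 and 8.15 in the 6 other libraries. It had a peak in every whole list and was called lost through the list limits. Foxo3, a regulator of red cell maturation, had a gained intronic region at +29.4 kb (6.99 and 7.51 at 6 h) and a lost intronic region at +32.1 kb (7.76 and 3.93 at 0 h, 4.70 in 6 h replicate 2). The lost Foxo3 region was in 5 of the 6 other kept lists, with 8.54 and 8.74 at 12 h and 5.89 in 24 h replicate 1. The gained regions near Nfe2, Mafk and Ldb1 were nearest to other genes. Outside the window, lost regions were nearest to Lmo2 (−69.7 kb, 4.67 and 6.23 at 0 h, 6.28 in 6 h replicate 2) and to Klf3 (−202 kb, 7.87 and 7.22 at 0 h, 6.28 in 6 h replicate 2).

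Cytokine signalling and iron genes had more gained than lost regions. Of 16 erythropoietin and cytokine receptor genes, 6 had a gained and 2 a lost region. Bcl2l1, which encodes the survival protein BCL-XL, had an intronic gained region at +12.6 kb (chr2:152817480-152818023) with scores of 9.6 and 9.23 at 6 h and between 4.27 and 8.26 in 5 of the 6 other libraries. The region at −48.3 kb from Jak2, the kinase of the erythropoietin receptor (chr19:29203279-29203791), had 6.14 and 6.38 at 6 h, 5.58 in 24 h replicate 1 and none in the other lists. Pim1, a target of STAT5, had gained regions at −43.3 kb (5.55 and 12.3 at 6 h) and −52.1 kb (4.16 and 9.36), the first with a peak in all 4 later whole lists, though below the limit in 12 h replicate 1. A gained region between Csf2rb and Csf2rb2, the β subunits of interleukin 3 type receptors, had 4.76 and 8.68, and that near Socs3 had 3.84 and 10.0. The lost regions near Socs3 and Flt3 were promoters of Pgs1 and Pan3.

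Of 12 iron handling genes, 5 had a gained region (Tfrc, Slc11a2, Fth1, Ftl1 and Ncoa4) and 1 a lost region (Ftl1). These genes serve iron uptake (Tfrc, Slc11a2), storage (Fth1, Ftl1) and release from ferritin (Ncoa4). The Ncoa4 promoter (chr14:32165377-32165887) had 4.92 and 10.1 at 6 h, 5.78 in 2 h replicate 2, 2.73 and 3.75 at 12 h and 6.61 in 24 h replicate 2. The Fth1 region at +7.13 kb lay in an intron of Best1 (5.66 and 6.97 at 6 h). The regions near Tfrc, Slc11a2 and Ftl1 were 29.7 kb to 48.9 kb away and nearest to other genes.

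Heme synthesis and membrane genes had gained and lost regions about as often as all genes, or more often. For heme synthesis genes the shares were 8.33% gained and 8.33% lost, against 5.33% and 4.04% of all protein-coding genes. These shares rest on 1 gene of each kind in either list. Regions of any kind lay near all heme synthesis and globin genes and near most membrane genes. Of 12 heme synthesis genes, Abcb10, a mitochondrial transporter needed for heme production, had a gained intronic region at +4.16 kb (chr8:123978663-123979258). Its scores were 6.52 and 5.88 after 2 h, 6.99 and 10.9 after 6 h, 6.75 and 14.2 after 12 h, and 12.6 and 3.8 after 24 h, so that it was in all treated libraries and in neither whole 0 h list. The gene of ferrochelatase, Fech, had a lost region 37.3 kb away that was nearest to Nars. None of 8 globin and haemoglobin assembly genes had a gained region. A single lost region in the β-globin cluster (chr7:103809344-103809977, 4.97 and 4.31 at 0 h, 5.33 in 6 h replicate 2) lay within 50 kb of 5 of them (Hbb-bt, Hbb-bs, Hbb-bh2, Hbb-bh1 and Hbb-y), so that the 5 genes stand for 1 region, which was below the limit at 6 h. Of 20 red cell membrane genes, Sptb had a gained and Slc2a1 a lost region, each more than 25 kb away.

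Of 20 megakaryocyte and platelet genes, 3 had a gained region (Gp1ba, Nfe2 and Treml1) and 2 a lost region (Gp1ba and F2rl2). The study captured chromatin contacts at promoters of genes activated or repressed by GATA1, and it chose these genes in the same cell system, so they are no independent evidence of a direction. Of 22 activated genes, 4 had a gained region (Abcb10, Mafk, Plekho2 and Spns2) and 3 a lost region (Btg2, Hbb-bs and Hebp1). The intronic region of Spns2, a sphingosine-1-phosphate transporter, at +22.8 kb (chr11:72466785-72467365) had 5.32 and 8.38 at 6 h, 4.44 to 8.98 in the 6 other treated libraries, and 3.74, below the limit, in 0 h replicate 1. The lost Btg2 region, with 7.37 and 7.24 at 0 h and 3.35 and 5.92 at 6 h, had 6.04 to 10.8 in the 6 other libraries. The paper captured 20 repressed promoters, and the list used here held 19 genes. Of these 19 repressed genes, 5 had a lost region (Gata2, Rgs1, Rgs13, Ms4a2 and Fgf3) and 3 a gained region (Il1rl1, Ms4a2 and Susd1). Lists of genes of other cell types had at most 1 gene with either kind: of 20 lymphoid genes Cd79a had a gained region, of 20 myeloid genes Siglech had a gained region, which was the Tubgcp5 promoter, and of 20 non-haematopoietic genes Myh6 had a lost region, which was an Efs promoter.

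Several loci had more than 1 region. Utrn (utrophin), Grb10 (an adaptor of receptor tyrosine kinases) and Nova1 were each nearest to 3 lost regions, and no gene was nearest to 3 gained regions. Of regions of any kind, 11 were nearest to Utrn, 5 to Grb10 and 17 to Nova1. At Utrn the scores at 0 h were 6.07 and 4.61, 4.61 and 2.48, and 8.52 and 4.84 for the 3 regions, of which 2 were in an intron and 1 at a promoter. At Nova1 the regions lay 574 kb to 693 kb from the nearest start. A total of 33 genes were nearest to both a gained and a lost region, among them Foxo3, Max and Hes1. The nearest region of the other time lay within 1 kb of 44 gained (9.03%) and 40 lost regions (8.06%), where a shift of the summit and a change of state cannot be told apart.

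Regions shared by the 4 lists were tested for a change in score, with limma on quantile-normalised log2 scores and no term for the replicate number. None of 6930 was higher (0%) or lower (0%) at 6 h at an adjusted p under 0.05, and at an unadjusted p under 0.05 there were 109 higher and 128 lower regions (limma, smallest adjusted p 0.243). The smallest p belonged to an intronic region of Mbnl1, a splicing regulator, with a log2 difference of −1.67 ± 0.40 (SE, n = 2 against 2, limma adjusted p = 0.243). Its deposited scores were 20.9 and 34.7 at 0 h and 4.27 and 27.7 at 6 h, lowest in 6 h replicate 1. These scores are not scaled between libraries. The medians of shared regions were 9.95 and 9.25 at 0 h and 8.20 and 17.4 at 6 h. Regions near Rere, Nxpe2, Abca1 and Pcx followed, with log2 differences of −1.76, −1.53, −1.61 and −0.89. In the other direction stood regions at Ubxn2a, Igdcc4, Sdhaf3, Por and Bckdk, with 1.52, 1.43, 1.49, 1.47 and 1.24. The Igdcc4 region scored 4.48 and 3.04 at 0 h and 12.9 and 12.2 at 6 h, and that of Por, the electron donor of cytochrome P450 enzymes, 7.11 and 3.61 against 19.5 and 16.8. For all 5 regions both deposited 6 h scores lay above both 0 h scores, and at Rere, Nxpe2, Abca1 and Pcx both lay below. The regions were picked by the smallest p, so this separation is no support for a change.

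By class, the log2 difference had a median of −0.09 in the 1696 shared distal regions (978 lower and 718 higher) and 0.03 in the 5234 shared promoter regions (2473 lower and 2761 higher), beside 0.00 over all. Shared distal regions with a GATA match had a median of −0.15 (547 lower and 322 higher), and those without had −0.02 (431 lower and 396 higher). By gene list, the median was −0.30 for the 20 shared regions near stem and progenitor genes (13 lower), −0.47 for 7 near megakaryocyte genes (6 lower), −0.15 for 9 near iron handling genes (5 lower) and −0.09 for 9 near cytokine receptor genes (6 lower). It was 0.34 for 17 near red cell membrane genes (9 higher), 0.07 for 16 near erythroid transcription factor genes (11 higher), 0.07 for 11 near heme synthesis genes (7 higher) and 0.04 for 2 near mast cell genes (1 higher). The 21 near captured activated promoters had 0.09 (15 higher) and the 9 near captured repressed promoters −0.11 (6 lower). The globin, lymphoid, myeloid and non-haematopoietic lists had 1, 1, 1 and 3 shared regions, with medians between −0.38 and 0.11. None of these regions passed the test individually.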

How the data were processed

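ATAC-seq summit lists of 10 libraries of G1E-ER4 cells were used as deposited by the authors, 1 list per library. The deposited score is −log10 of the MACS q-value within that library and is not scaled between libraries, and the lowest score, 1.30, corresponds to a q-value of 0.0499. The methods name Bowtie2, whereas the submitters' processing notes name Bowtie 1.0.0, Picard and MACS2 with the build mm10, so the aligner behind the lists is uncertain. Positions are 1 bp wide, and no read counts, depth or peak widths were used here. No shift for the Tn5 cut is stated, which leaves summits uncertain by some bases.

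Groups came from the sample titles. Lists were cut by rank to 11697 peaks on chromosomes 1 to 19 and X (that of 24 h replicate 2 held 10697 and was used whole), windows reaching 250 bp to either side of a summit were drawn and overlapping windows merged. Regions were annotated with 41135 transcript starts of 21644 protein-coding genes of GENCODE M21 (basic set, GRCm38). Motifs were read in the RefSeq GRCm38.p6 sequence, on both strands of the central 200 bp. Shared regions were compared with limma 3.58.1 (R 4.3.3), on log2 of the highest score in a region after quantile normalisation, with the Benjamini-Hochberg adjustment and a threshold of 0.05. The code was tested on simulated data. The p-values measure only the spread between 2 libraries a group.

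Members and gene lists were chosen with earlier results of these data known. Named regions were the 8 distal and 4 promoter regions of best rank in each direction among those absent from the whole lists of the other time, every region nearest to or within 50 kb of a listed gene, the 5 shared regions with the smallest p in each direction, and regions of genes nearest to 3 or more. Of the 9 globin and haemoglobin assembly genes, 1 (Ahsp) was not found in the annotation and was left out. Alternatives were other list sizes, window widths, merging over 10 lists, absence from whole lists, each library left out, other score scales and a replicate block. A few regions and sequences are not reported here.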

Additional observations from a re-analysis of the deposited data

How the results depend on the processing

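The counts of gained and lost regions depended on the lists. From 487 and 496, they came to 1201 and 227 with whole lists, where the lists differ most in size, to 258 and 294 with lists cut to 50% of the smallest, and to 313 and 139 when absence from the whole lists was required. With a library left out, which relaxes the rule to 3 lists, gained regions numbered 1117 to 2033 and lost regions 897 to 1750. Windows of 100 or 500 bp, merging over 10 lists and lists cut to the smallest of all 10 kept both counts within 1.5 times. The GATA share of lost regions exceeded that of gained regions in all 12 alternatives, and that of distal lost regions exceeded that of distal gained regions in 12 of 12, by 7.20 percentage points without 0 h replicate 2 to 30.7 with whole lists. The promoter share was higher in gained regions in 11 of 12 alternatives and lower, by 15.9 percentage points, without 6 h replicate 2. Of 204 class, motif and time point shares recomputed, 87 moved by less than 1 SD and 117 by more. For class and motif shares the SD was that of the 4 single-library comparisons. For time point shares it was that of the 2 libraries of the hour, so the split mixes unlike measures. Gained regions were listed equally in both 12 h libraries (52.0%), so all 11 alternatives of that share were bound to count as moved. Of 45 named gained and 54 named lost regions, 36 and 23 kept their call when absence from the whole lists was required, and 6 and 10 with lists cut to 50%.

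No shared region was higher at 6 h in any of the 10 alternatives of the limma fit. The count of lower regions was 0 except for 1 with the replicate block and, over the libraries left out, 0 to 1, the 1 without 6 h replicate 2. The labels give replicates a number but no shared culture or day, so the block was left out of the main fit. Same-numbered libraries did deviate together (r = 0.213 across 6930 regions, with 2 pairs), which the main fit ignores. The fit with the block had a median SE of 0.411, against 0.455 in the main fit. It gave 196 higher and 214 lower regions at an unadjusted p under 0.05 (limma). Its smallest adjusted p was 0.0216 (limma, with the block), and without 6 h replicate 2 it was 0.000645 (limma), where the lone 6 h library is assumed to vary like those at 0 h. The unknown depth limits every absence of a peak.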

Other observations

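Other genes near the regions fell outside the rule for named genes and were picked after their values were seen. Max, the partner of MYC, Zfp608 and Itpr2 were among the genes nearest to several regions of either kind, with 2 gained and 2 lost regions at Max, 2 gained at Zfp608 and 2 lost at Itpr2. Gained regions also came in pairs at Pou2f1, Zfp36l1 and Mbp, and lost regions at Inpp4b, Rapgef2, Cdh9 and Galnt10. Max and Zfp36l1 each had 12 regions of any kind nearest to them and Rapgef2 16, so that pairs at such genes stand among many other regions.

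Recurrence and motif content moved together in the lost set. The GATA share was 70.1% among the 117 lost regions found in none of the 6 other libraries, 59.7% with 1 such library, 53.3% with 2, 43.0% with 3, 37.0% with 4 and 29.0% with 5, and 44.4% among the 9 found in all 6. The promoter share went from 8.55% in none to 45.2% with 5 and 0% with 6. In the gained set the GATA shares lay between 19.8% and 38.0% with no such order. Regions share libraries and are no replicates of each other, so these are descriptions.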
